A study of Mus musculus with 3 samples.

Results

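Marker-positive B cells were blood cells of the B cell gate that held at least 3 UMIs (unique molecular identifiers, each counting 1 captured RNA molecule) of Irf4, Egr2, Fabp5 and Bcl2a1d in sum. The working name of the set was activated B cells of the CLP response. Members were chosen by their raw UMIs of these markers within the gate. A cell entered the gate if it passed 3 quality filters, namely a minimum of 500 UMIs, a minimum of 200 genes and a mitochondrial share of no more than 10%, and if it had under 5% of UMIs from S100a8 and S100a9, fewer than 2 UMIs of the T cell genes Cd3d, Cd3e, Cd3g and Trac and at least 3 UMIs of the B cell genes Cd79a, Cd79b and Ms4a1. The gate held 3311 cells, of which 60 were marker-positive and 3251 formed the remaining B cells, among 29754 cells that passed the quality filters. The levels of the 4 markers are therefore given as a description, and nothing was tested on them.

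The study profiled blood of C57BL/6J mice by droplet single-cell RNA sequencing, with 1 library for each of 3 groups, all labelled as 12 h and as peripheral blood mononuclear cells. The HDCA+CLP group was treated with HDCA and subjected to CLP, the CLP group was treated with CMC and subjected to CLP, and the Sham group had sham surgery with no CMC named in its label. The labels do not expand these abbreviations, and CLP is taken to mean caecal ligation and puncture (surgery that causes polymicrobial sepsis), HDCA the bile acid hyodeoxycholic acid, and CMC the common vehicle carboxymethylcellulose. How many animals gave blood for a library is not stated in the sources used here. With 1 library per group, differences between groups have no replicate check, no test between groups was made, and every interval below is a 95% interval for counting error only. CMC, surgery and library preparation cannot be told apart in a comparison of CLP with Sham.

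When the antigen receptor, CD40 or Toll-like receptors of a B cell are engaged, the cell leaves quiescence, induces NF-κB targets and MYC, enlarges, and builds ribosomes, nucleotides and polyamines before it divides. Irf4 encodes a transcription factor that is induced by these signals and reaches its highest level in plasma cells, and Egr2 encodes a zinc-finger factor induced by the antigen receptor. Bcl2a1d encodes a survival protein of the BCL2 family that NF-κB induces, and Fabp5 encodes a fatty acid-binding protein that macrophages and other cells also make. Resting follicular B cells, in contrast, keep the quiescence and trafficking factor Klf2, IgD and the MHC class II genes high.

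The HDCA+CLP library held 12205 barcodes and 95178381 UMIs, the CLP library 11387 barcodes and 87031721 UMIs, and the Sham library 7159 barcodes and 42427093 UMIs. The B cell gate held 276 of 12023 HDCA+CLP cells (2.30%), 289 of 10840 CLP cells (2.67%) and 2746 of 6891 Sham cells (39.8%). Between 16 and 32 barcodes were shared by each pair of libraries. Cells with at least 5% of UMIs from S100a8 and S100a9, the neutrophil alarmins, and 0 UMIs of the T and B cell gating genes numbered 8672 in HDCA+CLP, 4680 in CLP and 206 in Sham, and the summed neutrophil list stood at 8307, 5697 and 211 CPM (UMIs per 1000000 of the pool) in the remaining B cells of the same libraries. The part of neutrophil RNA in the results below was not tested.

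Marker-positive cells were 4 of 276 B cells in HDCA+CLP (1.45%, exact binomial interval 0.396 to 3.67), 25 of 289 in CLP (8.65%, 5.68 to 12.5) and 31 of 2746 in Sham (1.13%, 0.768 to 1.60). Their share of B cells was thus 7.66-fold higher in CLP than in Sham, and that in HDCA+CLP was 0.168 of that in CLP. The size of both contrasts moved with the rule and the gate. Over the alternatives, CLP over Sham ran from 3.84-fold with at least 2 marker UMIs to 19.0-fold without Irf4 in the rule, with 4.68-fold at a minimum of 5 B cell UMIs, 12.9-fold with thinned cells and 15.8-fold with at least 5 marker UMIs. The HDCA+CLP share ran from 0.0666 of the CLP share with thinned cells to 0.604 of it among cells with at least 5000 UMIs. The CLP interval did not overlap those of the other libraries, and the HDCA+CLP interval covered the Sham share. The same cells made up 0.0333% of all HDCA+CLP cells, 0.231% of all CLP cells and 0.450% of all Sham cells, so the order of CLP and Sham turned round with the denominator. Just outside the threshold, 2 HDCA+CLP, 11 CLP and 58 Sham B cells held 2 marker UMIs, and just inside it 2, 3 and 13 cells held 3. The highest cell held 14 marker UMIs in HDCA+CLP, 36 in CLP and 15 in Sham.

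**Figure D1:**
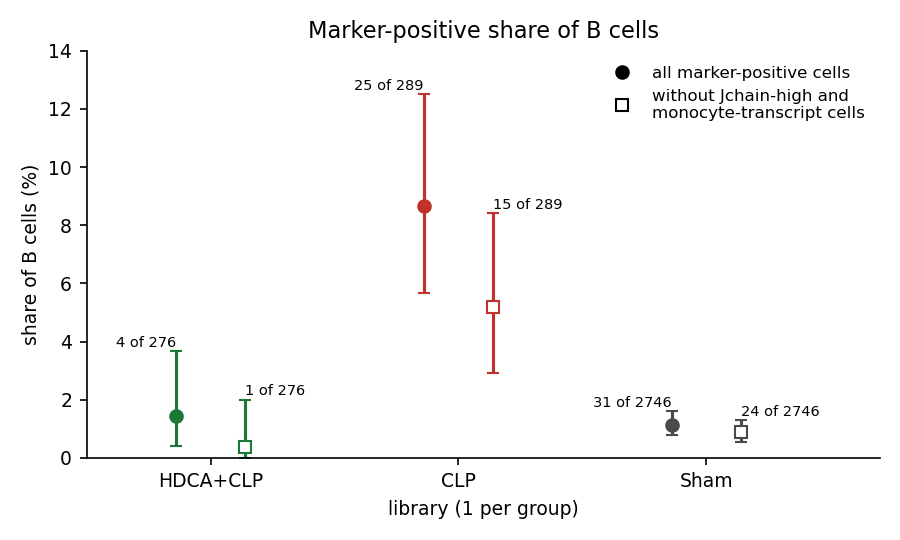
Share of B cells (%) that were marker-positive in each library (1 per group), for all marker-positive cells (filled circles) and without the Jchain-high and monocyte-transcript cells described in the text (open squares). Bars are exact 95% binomial intervals for counting error, and CLP stood highest in both versions, with 25 and 15 of 289 cells.

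A rule on raw UMIs favours cells with more RNA captured, and depth moved with the set. The median was 18629.5 UMIs per marker-positive cell against 2697.5 per remaining B cell in HDCA+CLP, 9190 against 3180.5 in CLP and 9630 against 4264 in Sham. Among B cells with 5000 to 10000 UMIs, 0 of 11 were marker-positive in HDCA+CLP, 11 of 39 in CLP (28.2%, 15.0 to 44.9) and 14 of 676 in Sham (2.07%, 1.14 to 3.45). In that range the CLP share was the highest with its interval apart from Sham, while the 11 HDCA+CLP cells allow a share of up to 28.5%. Below 5000 UMIs, 1 of 262 HDCA+CLP cells (0.382%), 3 of 227 CLP cells (1.32%, 0.273 to 3.81) and 3 of 1991 Sham cells (0.151%, 0.0311 to 0.440) were marker-positive. Above 10000 UMIs the counts were 3 of 3 in HDCA+CLP, 11 of 23 in CLP (47.8%, 26.8 to 69.4) and 14 of 79 in Sham (17.7%, 10.0 to 27.9). In both of these ranges the CLP and Sham intervals overlapped, and in the deeper one HDCA+CLP was highest. Without the Jchain-high and monocyte-transcript cells described below, the deeper range held 0 cells in HDCA+CLP, 1 in CLP (4.35%) and 7 in Sham (8.86%), so that CLP was not higher there. When every cell was thinned to 2000 UMIs, which left out 35 HDCA+CLP, 16 CLP and 60 Sham B cells that were shallower, at least 2 marker UMIs were found in 1 of 241 HDCA+CLP cells (0.415%), 17 of 273 CLP cells (6.23%) and 13 of 2686 Sham cells (0.484%). Only the marker UMIs that choose the members were thinned. Gene ratios given below for this alternative use the full counts of the members so chosen.

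T cells, gated by at least 3 UMIs of the 4 T cell genes, 0 UMIs of the 3 gating B cell genes and the same limit on S100a8 and S100a9, followed the same order of libraries. At least 3 UMIs of the 4 markers were found in 35 of 1283 HDCA+CLP T cells (2.73%, 1.91 to 3.77), 180 of 2949 CLP T cells (6.10%, 5.27 to 7.03) and 15 of 2740 Sham T cells (0.547%, 0.307 to 0.901), with medians of 4063, 4796 and 6647 UMIs. The order was different among cells high in S100a8 and S100a9, where at least 3 marker UMIs were found in 507 of 8672 HDCA+CLP cells (5.85%, 5.36 to 6.36), 180 of 4680 CLP cells (3.85%, 3.31 to 4.44) and 43 of 206 Sham cells (20.9%, 15.5 to 27.1). The CLP share was thus the highest of the 3 in T cells and the lowest in the cells high in S100a8 and S100a9. Among the cells high in S100a8 and S100a9, with medians of 8032, 8578.5 and 4190 UMIs, Fabp5 had a UMI in 35.2%, 27.4% and 54.9% and Irf4 in 0.0231%, 0.0641% and 0.485%. Bcl2a1d was found in 1.41%, 1.45% and 0% of the same cells, where 0 of 206 allows up to 1.77%. Fabp5 was thus found widely in the cells high in S100a8 and S100a9, in which Irf4 was close to absent. T cells differed from them. In HDCA+CLP, CLP and Sham T cells, Irf4 had a UMI in 2.42%, 2.44% and 1.17% and Fabp5 in 4.91%, 6.00% and 5.36%. Bcl2a1d had one in 5.07%, 13.4% and 3.28% of the same T cells.

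The 4 markers did not contribute equally. Of the 4 HDCA+CLP cells, 3 held Irf4, 3 Fabp5, 1 Bcl2a1d and 0 Egr2. Of the 25 CLP cells, 12 held Irf4, 17 Fabp5, 18 Bcl2a1d and 1 Egr2. Of the 31 Sham cells, 24 held Irf4, 10 Fabp5, 13 Bcl2a1d and 0 Egr2. Egr2, the antigen receptor-induced factor of the set, was thus close to absent, with 1 UMI in all 60 cells, and leaving it out of the rule changed no member. Summed over the cells, Irf4 stood at 100.2 CPM in marker-positive against 10.2 in remaining HDCA+CLP cells, 84.2 against 19.3 in CLP and 260.6 against 28.4 in Sham. Fabp5 stood at 167 against 2.54 CPM in HDCA+CLP, 346 against 11.6 in CLP and 78.8 against 2.06 in Sham, and Bcl2a1d at 22.3 against 5.09, 215 against 13.5 and 133 against 7.29 CPM. CLP cells were thus chosen mainly through Bcl2a1d and Fabp5, and Sham cells mainly through Irf4.

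Bcl2a1d has close copies whose reads the counting could have split. The last 300 bases of the GENCODE vM21 transcript of Bcl2a1d matched those of Bcl2a1a at 298 positions and those of Bcl2a1b at 296, so counts of single copies are uncertain in a 3′ library.

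Checked against defining markers, the 60 cells were not of 1 kind. Cells with at least 10 UMIs of Jchain, which encodes the joining chain of secreted IgA and IgM, numbered 2 in HDCA+CLP, 2 in CLP and 1 in Sham and are called Jchain-high cells. Of the others, 1 HDCA+CLP, 8 CLP and 6 Sham cells held at least 10 UMIs of 12 monocyte markers and are called monocyte-transcript cells. That left 1 HDCA+CLP, 15 CLP and 24 Sham cells, called the other marker-positive cells, which were 0.362%, 5.19% and 0.874% of the B cells of their libraries. Both thresholds were chosen after the values were seen. The share of the other marker-positive cells was 5.94-fold higher in CLP than in Sham. Over the alternatives it ran from 2.77-fold with at least 2 marker UMIs to 22.8-fold without Irf4. The HDCA+CLP share was 0.0698 of that in CLP and rested on 1 cell. Among the remaining B cells, 0 were Jchain-high, and 0 in HDCA+CLP, 4 in CLP and 22 in Sham were monocyte-transcript cells. Over all marker-positive cells, the monocyte list summed to 2382 CPM in HDCA+CLP, 4047 in CLP and 4639 in Sham, and a list of 10 B cell markers to 713, 704 and 6348 CPM. Summed as one pool, the CLP and HDCA+CLP cells thus held more monocyte than B cell marker RNA, against the working name. Deep cells weigh more in such a sum, and the 8 CLP monocyte-transcript cells held 232845 of the 427466 CLP UMIs. At the median cell the order was reversed, with 197 monocyte against 1267 B cell CPM in CLP and 352 against 926 in HDCA+CLP.

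**Figure D2:**
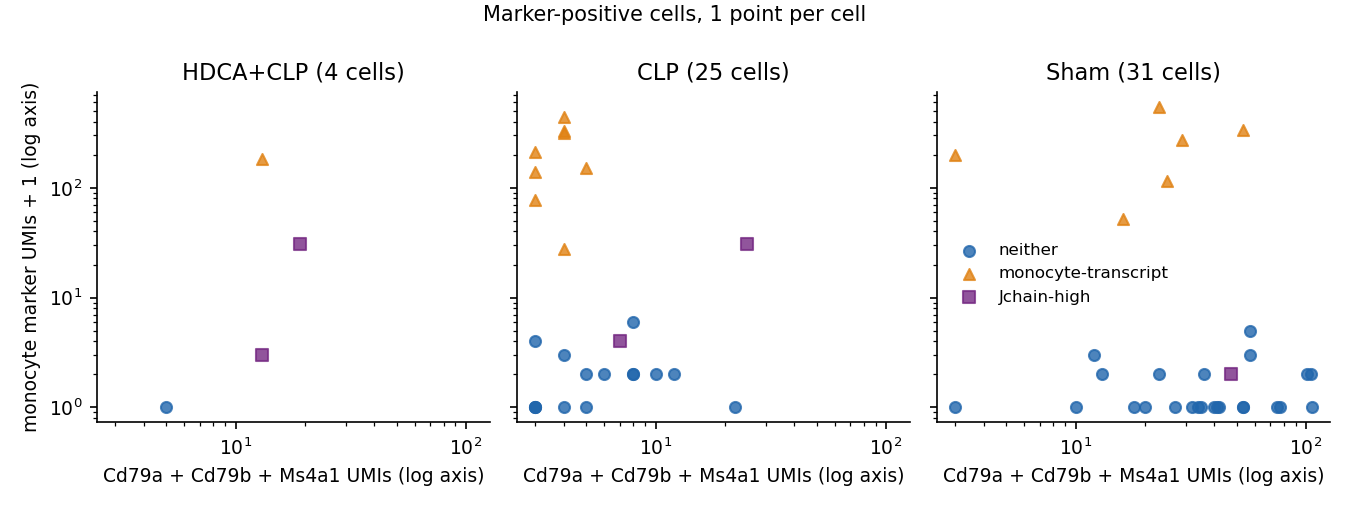
UMIs of the 3 gating B cell genes (x axis, log) against UMIs of 12 monocyte markers plus 1 (y axis, log) for each marker-positive cell, by library. The 8 CLP monocyte-transcript cells (triangles) held 3 to 5 B cell UMIs beside 27 to 437 monocyte UMIs, and the cells of neither kind (circles) held at most 5 monocyte UMIs.

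Doublets, droplets that caught more than 1 cell, were scored but not removed, because the rule does not remove them. Called doublets were 0 of 1 HDCA+CLP, 0 of 8 CLP and 5 of 6 Sham monocyte-transcript cells, and 1 of 2, 0 of 2 and 0 of 1 Jchain-high cells. Of the other marker-positive cells 0 of 1, 0 of 15 and 2 of 24 were called, against 4 of 272, 7 of 264 and 109 of 2715 remaining B cells. Doublet calls were thus most frequent in the Sham monocyte-transcript cells.

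Jchain-high cells carried the antibody secretion programme. The HDCA+CLP cells held 120 and 283 Jchain UMIs, the CLP cells 229 and 249, and the Sham cell 325. Igkc, the kappa light chain, reached 1533 and 3094 UMIs in HDCA+CLP, 1373 and 3461 in CLP and 2814 in Sham. The heavy chain differed between cells. Igha, the IgA heavy chain, had 379 and 1038 UMIs in the HDCA+CLP cells and 939 in the Sham cell, against 4 and 6 in the CLP cells. Of the CLP cells, 1 held 596 Ighg2b UMIs and 1 held 900 Ighg2c UMIs, so both CLP cells were of IgG2 type and the other 3 of IgA type by their most abundant heavy chain. Xbp1, the factor of the secretory programme, had 99 UMIs in the HDCA+CLP cells, 50 in the CLP cells and 11 in the Sham cell, and Tnfrsf17, the plasma cell survival receptor BCMA, had 27, 12 and 8. Cd22, Pax5, Ighm and Ighd, genes of mature B cells that plasma cells switch off or lose by class switching, were all at 0 UMIs in these 5 cells. The proliferation gene Mki67 had 62 UMIs in HDCA+CLP and 45 in CLP, and 1 in the Sham cell. Irf4 had 6, 17 and 4 UMIs, Fabp5 11, 38 and 0, and Bcl2a1d 0 in every Jchain-high cell.

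Monocyte-transcript cells were chosen by their UMIs of the monocyte markers. Lyz2 and Csf1r belong to these markers, so their counts are given as a description. Lyz2, the lysozyme of myeloid cells, had 96 UMIs in the HDCA+CLP cell, 724 in 7 of the 8 CLP cells and 1104 in all 6 Sham cells. Csf1r, the receptor for macrophage colony-stimulating factor, had 1 UMI in HDCA+CLP, 27 in 7 CLP cells and 55 in 6 Sham cells. Their B cell RNA differed by library. The gating genes summed to 13 UMIs in the HDCA+CLP cell, 3 to 5 per CLP cell and 3 to 53 per Sham cell, and Ebf1, the B lineage factor, had 0 UMIs in HDCA+CLP, 8 in 2 CLP cells and 45 in 5 Sham cells. Sham monocyte-transcript cells thus carried both programmes, and CLP ones carried few B cell UMIs. Few such UMIs were not particular to them, since the CLP other marker-positive cells held 3 to 22 each. Saa3, an acute-phase serum amyloid gene of macrophages, had 384 UMIs in HDCA+CLP, 6958 in CLP and 20 in Sham. These cells entered the set through Fabp5 and Bcl2a1d, with 4, 74 and 17 Fabp5 UMIs and 2, 20 and 13 Bcl2a1d UMIs against 0, 0 and 1 of Irf4.

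Jchain and myeloid genes led the comparison of all marker-positive with all remaining B cells. In CLP, 1052 of 4630 measured genes were at least 2-fold higher (22.7%) and 689 at least 2-fold lower (14.9%), where measured means an expected count of at least 10 in the smaller pool if both pools had the same proportions. In Sham, 337 of 4092 were higher (8.24%) and 130 lower (3.18%). The 10 leading higher genes in CLP were Jchain, U90926, Spp1, Ctsg, Cxcl10, Mpo, Emp1, Edn1, Il1rn and Rep15, of which Spp1, Cxcl10 and Il1rn are macrophage products and Ctsg and Mpo are granule proteins of myeloid progenitors. With members re-chosen by thinning to 2000 UMIs, 7 of the 10 ratios were below 0, from −4.08 for Jchain to −0.13 for Rep15. Those of Spp1, Edn1 and Emp1 were above 0. These ratios use the full counts of 17 CLP cells, 15 of them other marker-positive cells, and do not compare expression at equal depth. In Sham the 10 leading higher genes were Jchain, Hspa1a, Adgre4, Fabp4, Csf1r, Saa3, Hpgd, Ace, Cx3cr1 and Pla2g7, which include receptors and enzymes of monocytes. The Jchain ratio in Sham was −0.37 with at least 5 marker UMIs and −0.26 without Irf4 in the rule. The 10 leading lower genes in CLP were Bank1, Ets1, Ltb, Neurl3, Pgap1, Btla, Txnip, Fcrla, H2-Eb1 and Ablim1. In Sham they were Vpreb3, Tmem108, Hvcn1, Ebf1, Id3, Abca1, Smad7, Zfp608, Cerk and Bach2. Between the libraries, 576 of 4169 genes were at least 2-fold higher in CLP than in Sham marker-positive cells (13.8%), led by Saa3, Spp1, Ccl4, U90926 and Cxcl10. With members re-chosen by thinning, Ccl4 and Cxcl10 were −0.84. In the same comparison 771 genes were lower in CLP (18.5%), led by Ltb, Bank1, Fcer2a, Cd55 and Hpgd. With scaling by the median gene ratio instead of the total, which moved the median of all genes by −0.23 (log2) in CLP, 728 genes were higher and 878 lower there, so that the share of higher among called genes was 45.3% in place of 60.4%. In Sham that share was 58.3% in place of 72.2%, with 260 higher and 186 lower.

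The comparisons that follow therefore use the other marker-positive cells, 15 in CLP and 24 in Sham, against the remaining B cells under the same limits on Jchain and monocyte UMIs, 260 in CLP and 2693 in Sham. In CLP, 353 of 1434 measured genes were at least 2-fold higher (24.6%) and 193 at least 2-fold lower (13.5%), with a median log2 ratio of 0.28 over all of them. In Sham, 185 of 2787 were higher (6.64%) and 79 lower (2.83%), with a median of 0.09. Median-ratio scaling gave 248 higher and 259 lower genes in CLP, 48.9% higher among called genes in place of 64.7%, and 143 and 102 in Sham, 58.4% in place of 70.1%. The counts below are to be read against these shares, since the pools differ in depth per cell and in cell number.

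B lineage identity was present but uneven in these cells. The gating B cell genes summed to 3 to 22 UMIs per CLP cell and 3 to 106 per Sham cell. With at least 5 such UMIs required, 9 CLP and 23 Sham cells were left. Ebf1 had 33 UMIs in 14 of the 15 CLP cells and 175 in 23 of the 24 Sham cells. Pax5, which maintains B cell identity, was found in 7 of the 15 CLP and all 24 Sham cells. The heavy chain of the CLP cells was that of IgM, with 168 Ighm UMIs in 12 cells and no UMI of an IgA or IgG heavy chain. The 10 B cell markers summed to 1900 CPM in CLP against 5500 in the CLP comparison cells, and to 8446 against 10956 CPM in Sham, so the CLP cells stood furthest below their neighbours. The monocyte list stood at 138 against 164 CPM in CLP, with Csf1r, Ccr2, Fcgr1, F13a1, Fn1, Cx3cr1 and Adgre1 at 0, and at 61.6 against 48.8 CPM in Sham. Both pools had been limited in UMIs of this same list, so its low level was fixed by the choice and is no check of lineage. The neutrophil list summed to 2790 against 5341 CPM in CLP and 37.9 against 179 in Sham, and the NK cell list to 121 against 2404 CPM in CLP, so the CLP comparison cells held more neutrophil and NK cell RNA, whose part in the ratios below was not tested. Vpreb1, Igll1, Rag1, Rag2, Dntt and Kit, genes of B cell precursors, were at 0 UMIs in all 15 CLP and all 24 Sham cells, a check chosen after the values were seen. The cells are called by their markers here, since Egr2 was missing from nearly all and the pan-B genes were low in CLP.

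The markers combined differently in the 2 libraries. Of the 15 CLP cells, 6 held Irf4, Fabp5 and Bcl2a1d together, 3 held Bcl2a1d only, 2 held Irf4 only, 2 held Irf4 and Bcl2a1d, and 2 held Fabp5 with Bcl2a1d, 1 of them with Egr2. Of the 24 Sham cells, 12 held Irf4 only, 5 held Irf4 with Bcl2a1d, 3 held Irf4, Fabp5 and Bcl2a1d, and 4 held other combinations. Irf4 stood at 164 CPM in the CLP cells and 384 in the Sham cells, Fabp5 at 311 and 42.6, and Bcl2a1d at 622 and 147. Bcl2a1b, a near copy that the rule did not name, stood at 449 CPM in CLP cells against 78.1 in their comparison cells (52 and 75 UMIs, log2 ratio 2.52) and at 99.5 against 25.8 CPM in Sham (log2 ratio 1.95), and Bcl2a1a had 0 UMIs. The Bcl2a1b counts are not independent of the rule, since its transcript end matches that of Bcl2a1d at 296 of 300 positions.

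**Figure D3:**
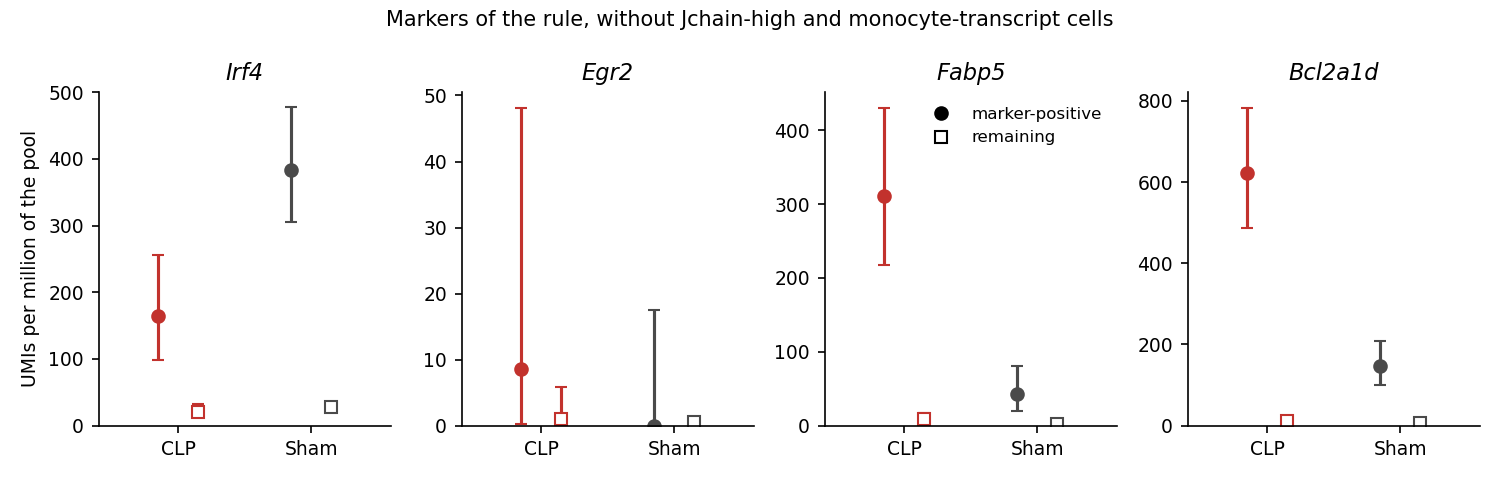
Level (CPM, linear axes starting at 0) of Irf4, Egr2, Fabp5 and Bcl2a1d in other marker-positive cells (filled) and remaining B cells (open) of CLP and Sham, with exact 95% Poisson intervals. The rule fixed that marker-positive cells are higher, and the plot shows which marker carried the choice: Bcl2a1d at 622 in CLP and Irf4 at 384 in Sham.

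Biosynthesis genes were higher in the CLP cells throughout the measured list. The list held 36 MYC targets and genes of ribosome, nucleotide, polyamine and translation factor synthesis, and 31 were measured. All 31 were higher and all 31 at least 2-fold higher in the CLP marker-positive cells, with a median log2 ratio of 1.90 against 0.28 over all genes, and the smallest values were 1.35 for Mybbp1a and Hspe1. The list median lay between 1.51 and 2.08 under every alternative that gave a value. Eif4e, Cad, Slc7a5, Bop1 and Shmt2 had too few counts to be measured.

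Within it, enzymes of polyamine and nucleotide synthesis come first, then transport and nucleolar proteins. Srm, spermidine synthase, stood at 259 CPM in CLP marker-positive cells against 18.8 in the comparison cells (30 and 18 UMIs, log2 ratio 3.79, 2.90 to 4.72). Odc1, ornithine decarboxylase, the first enzyme of polyamine synthesis, stood at 380 against 55.2 CPM (2.78, 2.17 to 3.39) and had a UMI in 14 of the 15 cells. Nme1, a nucleoside diphosphate kinase, stood at 1149 against 211 CPM (2.44, 2.12 to 2.76). Both polyamine steps were thus over 4-fold higher. Ran, the GTPase of nuclear transport, stood at 1114 against 234 CPM (2.25, 1.93 to 2.57), and the nucleolar proteins Ncl and Npm1 at 3843 against 1006 CPM (1.93) and 4215 against 994 CPM (2.08). Myc itself stood at 233 against 85.4 CPM (27 and 82 UMIs, 1.45, 0.76 to 2.09). Every one of these intervals lay above 0.

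MYC binds the hexamer CACGTG, a palindrome that reads the same on both strands, among other sequences. To show what the starts of these genes look like, RefSeq promoter windows (GRCm38.p6, 250 bases before to 50 after each start) of Nme1, Ran, Cdk4 and Odc1 are printed 5′ to 3′ on the gene's strand with each CACGTG in capitals. They lie at chr11:93968223-93968522 on the minus strand (the first of the Nme1 starts), chr5:129019906-129020205, chr10:127063285-127063584 and chr12:17544623-17544922 on the plus strand.
Nme1: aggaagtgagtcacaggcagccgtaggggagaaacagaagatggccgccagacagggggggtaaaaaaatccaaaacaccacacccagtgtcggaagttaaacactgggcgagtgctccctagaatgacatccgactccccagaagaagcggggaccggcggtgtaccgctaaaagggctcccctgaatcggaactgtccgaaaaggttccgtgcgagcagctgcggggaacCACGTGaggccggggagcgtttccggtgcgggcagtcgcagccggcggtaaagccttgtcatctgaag
Ran: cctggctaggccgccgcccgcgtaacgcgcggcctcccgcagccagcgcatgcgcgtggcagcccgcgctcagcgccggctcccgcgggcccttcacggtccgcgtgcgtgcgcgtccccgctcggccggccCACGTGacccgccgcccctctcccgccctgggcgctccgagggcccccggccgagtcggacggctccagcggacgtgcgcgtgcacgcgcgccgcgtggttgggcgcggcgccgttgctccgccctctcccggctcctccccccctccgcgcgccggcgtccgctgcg
Cdk4: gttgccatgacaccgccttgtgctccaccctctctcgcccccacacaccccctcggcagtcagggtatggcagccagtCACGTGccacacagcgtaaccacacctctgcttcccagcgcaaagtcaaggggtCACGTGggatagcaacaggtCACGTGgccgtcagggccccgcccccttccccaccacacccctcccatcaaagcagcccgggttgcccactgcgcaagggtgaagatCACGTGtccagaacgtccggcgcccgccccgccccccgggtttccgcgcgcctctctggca
Odc1: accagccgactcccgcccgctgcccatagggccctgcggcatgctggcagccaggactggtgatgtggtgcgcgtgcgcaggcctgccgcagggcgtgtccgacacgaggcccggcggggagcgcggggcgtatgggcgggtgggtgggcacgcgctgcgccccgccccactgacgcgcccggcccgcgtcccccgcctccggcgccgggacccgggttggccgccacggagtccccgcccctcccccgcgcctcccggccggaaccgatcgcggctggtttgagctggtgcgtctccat

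The hexamer began 18 bases before the start in Nme1 and 118 before it in Ran, occurred 4 times in Cdk4, the kinase of the G1 phase, and was not in the Odc1 window. At least 1 CACGTG was found in the windows of 10 of the 30 list genes with a window (33.3%), against 149 of 1136 genes measured in the CLP comparison (13.1%), 2187 of 27025 genes (8.09%) and 2 of 24 genes of the nuclear oxidative phosphorylation list (8.33%). In the follicular and resting B cell list it was found in 0 of 21 genes. The 10 biosynthesis genes were Nme1, Mybbp1a, Hspd1, Ran, Eif5a, Eif4a1, Eif4e, Cdk4, Wdr43 and Phb, of which Eif4e was not measured in CLP. A gene counted if any of its windows held the hexamer, and genes differed in number of windows, with 6 for Eif5a and 1 for Ran. A match describes the letters in the window and is no measurement of binding, and the list was itself chosen for known MYC targets.

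The 10 leading higher genes of the CLP comparison, by the bound of the interval nearest 0, included Srm and Odc1 beside 8 others. Cdca7, a MYC-responsive gene of the cell cycle, stood at 173 against 9.38 CPM (20 and 9 UMIs, log2 ratio 4.20, 3.00 to 5.52). Eif4ebp1, a repressor of cap-dependent translation under mTOR control, stood at 181 against 15.6 CPM (3.54), and Dctpp1, a dCTP pyrophosphatase, at 337 against 33.3 CPM (3.34). Utp20, an rRNA processing factor, Siva1, a CD27-binding protein, and Pabpc4, a poly(A)-binding protein, had ratios of 3.21, 3.19 and 3.05, Ybx3 2.98, and Mif, a secreted cytokine, 2.49 at 2401 against 426 CPM. Cdca7 was found in 8, Srm in 9 and Mif in 14 of the 15 cells, so these values rested on many cells. The cell cycle list itself was thinly measured, with 5 genes, 3 higher and 2 lower, and its median of 1.27 was −0.22 among cells with at least 5000 UMIs.

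Energy metabolism and chaperones were higher alongside. Of 10 measured glycolysis and hypoxia genes 9 were higher and 6 at least 2-fold higher (median 1.36), with Ldha, lactate dehydrogenase, at 924 against 163 CPM (2.51) and Pgam1, phosphoglycerate mutase, at 250 against 62.5 CPM. Of 29 nuclear oxidative phosphorylation genes 26 were higher, 11 of them at least 2-fold, and 1 was at least 2-fold lower (median 0.81), with Uqcrq of complex III at 1.88. All 5 measured heat shock genes were higher, 3 of them at least 2-fold (median 1.30), with Hsp90ab1 at 5070 against 1499 CPM (1.76). Relative to the median of 0.28 over all genes, these lists stood above the rest by less than the biosynthesis list did.

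Genes induced by NF-κB and surface markers of activation lay on both sides of 0. Of 9 measured NF-κB and receptor-induced genes 8 were higher and 3 at least 2-fold higher (median 0.67). Nfkbid, a nuclear IκB protein, stood at 294 against 55.2 CPM (2.41), and Nfkbie, an inhibitor of NF-κB, had a ratio of 1.90, against −1.18 for Birc3, a ubiquitin ligase of the same pathway. Of 8 surface genes 4 were at least 2-fold higher and 2 at least 2-fold lower. Tnfrsf13b, the BAFF and APRIL receptor TACI, stood at 190 against 46.9 CPM (2.02), Cd83 at 268 against 125 CPM (1.10), and Cd86, the costimulatory ligand of CD28, at 207 against 93.8 CPM (1.14). Cd38 (−2.82) and the early activation antigen Cd69 (−1.34) were lower. Immediate early genes, the first transcripts that such signals induce, were mostly lower, with 9 of 10 lower and 7 at least 2-fold lower (median −1.70), among them Junb (−1.85), Jund (−1.89) and Btg2 (−2.80).

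Genes of resting follicular B cells and of antigen presentation were lower. Of 14 measured follicular and resting genes 13 were lower and 11 at least 2-fold lower (median −2.42). Klf2 stood at 60.5 against 926 CPM (7 and 889 UMIs, −3.94, −5.26 to −2.89) and had a UMI in 3 of 15 marker-positive cells against 189 of 260 comparison cells, although the marker-positive cells were deeper, with a median of 7447 against 3165 UMIs. Txnip, which restrains glucose uptake, stood at 51.8 against 676 CPM (−3.71), and Ighd, the IgD heavy chain, had a ratio of −2.42. All 10 measured MHC class II genes were lower and 7 at least 2-fold lower (median −1.72), with H2-Eb1 at 484 against 2002 CPM (−2.05), H2-Aa at 734 against 2439 (−1.73) and H2-DMa, a peptide-loading chaperone, at 34.5 against 319 (−3.21). Cd74, the invariant chain, stood at 4413 against 7620 CPM (−0.79).

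Further genes at the lower end were regulators of quiescence and signalling. Ssh2, a cofilin phosphatase, had 1 UMI against 418 (−5.66, −10.96 to −3.17), Ets1, a lymphoid transcription factor, 2 against 473 (−4.83), Stk17b, a kinase that dampens antigen receptor signalling in T cells, 4 against 761 (−4.52), and Socs3, a feedback inhibitor of cytokine receptors, 2 against 373 (−4.49). Neurl3 (−5.05) and the inhibitory receptor Btla (−4.84) had 1 UMI each. Arhgap45 and Sesn1, an inhibitor of mTORC1, had 0 UMIs against 216 and 208, which at a floor of 3 counts per pool are log2 ratios of −3.12 and −3.06 or lower. Of 16 antigen receptor and identity genes 13 were lower and 10 at least 2-fold lower (median −1.42), among them Bank1 (−3.77). All 4 measured glucocorticoid-induced genes were at least 2-fold lower (median −3.19), with Tsc22d3 at 60.5 against 638 CPM (−3.40). Of 7 type I interferon genes 1 was at least 2-fold higher and 0 at least 2-fold lower (median −0.50).

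**Figure D4:**
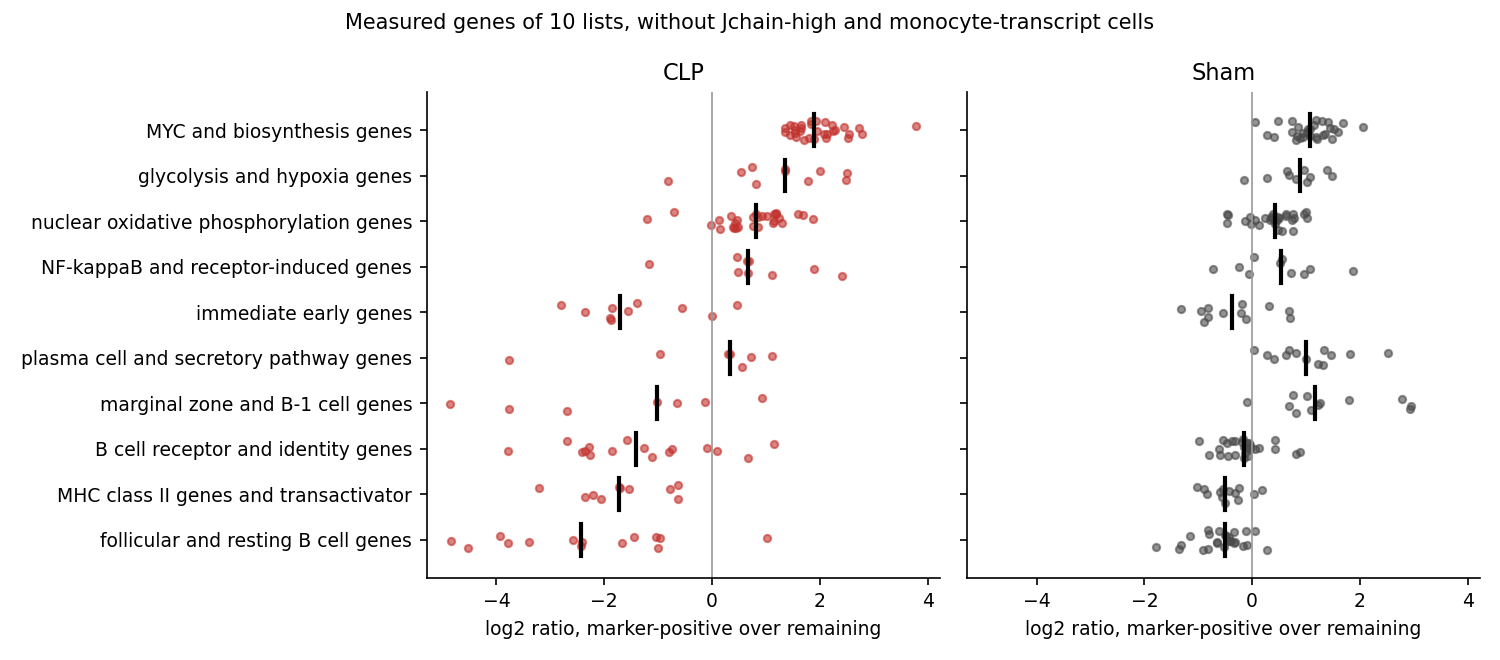
Log2 ratio of other marker-positive over remaining B cells for each measured gene (points) of 10 gene lists in CLP (left) and Sham (right), with the list median as a vertical line. The biosynthesis genes lie wholly right of 0 in CLP, around 1.90, and the follicular genes mostly left of it, around −2.42, with smaller values of the same sign in Sham.

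The programme was carried by most CLP cells, not by a few. Summed per cell, the biosynthesis list ran from 2723 to 32765 CPM with a median of 22554 in the 15 CLP cells, and 14 lay above the median of the comparison cells (4359) and 13 above their 90th percentile (9565). The 13 CLP cells with a Bcl2a1d UMI had a median of 24348 (17343 to 32765), and the 2 without one stood at 2723 and 8512. The level thus moved with a marker of the rule, and its link to the choice of cells was not tested. The 2 cells without Bcl2a1d held 2571 and 4934 UMIs, against a median of 7447 in the 15 cells. Lack of Bcl2a1d and low depth cannot be told apart in them. MHC class II genes ran from 389 to 18260 with a median of 6511, and 1 of the 15 cells lay above the comparison median of 15779. Follicular genes had a median of 1825, and 0 of 15 cells lay above the comparison median of 7064. The groups overlapped in each list, since some comparison cells reached 30502 for biosynthesis.

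**Figure D5:**
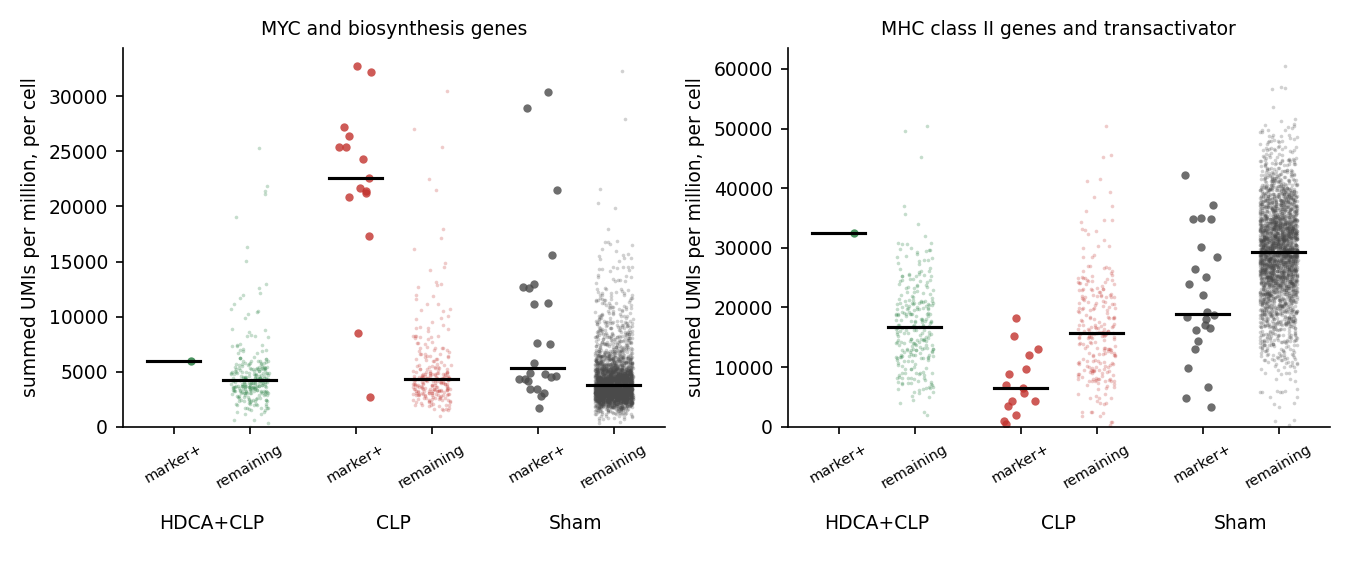
Summed level per cell (CPM) of the biosynthesis list (left) and the MHC class II list (right) in other marker-positive cells and remaining B cells of each library, 1 point per cell with the median as a bar. In CLP 13 marker-positive cells stand between 17343 and 32765 for biosynthesis, and in Sham 3 of 24 cells reach 21486 or more.

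The Sham cells had smaller ratios for the same list, with other leading genes overall. All 30 measured biosynthesis genes were higher and 18 at least 2-fold higher (median 1.07 against 0.09 over all genes), with Srm at 137 against 33.0 CPM (2.06), Ranbp1 at 1.68 and Ncl at 1374 against 518 CPM (1.41). Per cell the list had a median of 5354 against 3789, with 11 of 24 cells above the comparison 90th percentile of 6979. The 3 highest cells stood at 30377, 28917 and 21486, so the whole range of the Sham cells, 1725 to 30377, was about as wide as that of the CLP cells. Each of the 3 held Bcl2a1d. The 10 Sham cells with a Bcl2a1d UMI had a median of 9373, and the 14 without one a median of 4702.

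Genes of marginal zone and B-1 cells, the innate-like B cell subsets, and of the secretory pathway were higher in Sham. Of 12 measured marginal zone and B-1 genes 11 were higher and 8 at least 2-fold higher (median 1.16), and 17 of 24 cells lay above the comparison median. The list is not confined to these subsets. Its median per cell was 2129 CPM here, against 10577.5 in the 6 Sham monocyte-transcript cells and 8433 in the Sham Jchain-high cell. Fcrl5, an Fc receptor-like protein of these subsets, stood at 128 against 18.5 CPM (2.79, 2.16 to 3.37), and S100a6, a calcium-binding protein, at 1000 against 132 CPM (2.92). The S100a6 ratio was −1.69 when members were re-chosen by thinning to 2000 UMIs. Single cells weighed heavily in others, since 61 of 108 Ahnak UMIs (2.95), 91 of 172 Vim UMIs, 19 of 26 Zcwpw1 UMIs and all 29 Hspa1a UMIs came from 1 cell each. At a mitochondrial limit of 5%, the ratios of Vim and Zcwpw1 were −0.19 and −0.082. The Vim ratio was −0.78 with members re-chosen by thinning. All 13 measured plasma cell and secretory genes were higher, 6 of them at least 2-fold (median 0.99), with Sdf2l1, an endoplasmic reticulum chaperone, at 85.3 against 14.9 CPM (2.52) and Xbp1 at 90.0 against 25.6 CPM (1.82). Ccnd2, cyclin D2 of the G1 phase, stood at 748 against 131 CPM (2.51), Csf2rb, the shared receptor chain for IL-3, IL-5 and GM-CSF, at 90.0 against 18.0 CPM (2.33), and Cd83 at 218 against 57.4 CPM (1.92).

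Resting genes were lower in Sham by less than in CLP. Of 26 follicular genes 24 were lower, 4 at least 2-fold (median −0.50), of 13 MHC class II genes 11 were lower, 1 at least 2-fold (median −0.51), and of 28 antigen receptor and identity genes 22 were lower with 0 at least 2-fold (median −0.14). Vpreb3, expressed in B cells from the precursor stage on, stood at 161 against 555 CPM (−1.79), Ebf1 at 829 against 1647 (−0.99), Smad7, an inhibitor of TGF-β signalling, at 66.3 against 212 (−1.68), and Bach2, a repressor of plasma cell differentiation, had a ratio of −1.32. Sorl1 (−1.79), Zfp608 (−2.52), Neurl3 (−1.62), Nrm (−1.88), Btg2 (−1.32), Hvcn1 (−1.39) and Arhgef18 (−1.75) completed the lower end. The difference between the CLP and Sham ratios was not tested.

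Set directly against each other, the other marker-positive cells of CLP and Sham differed in many lists, among them growth, antigen presentation and resting B cell genes. They also differed in the markers that admitted them, since 13 of 15 CLP and 10 of 24 Sham cells held Bcl2a1d. Among cells with Bcl2a1d, the median per cell was 24348 CPM in CLP against 9373 in Sham for biosynthesis. It was 6511 against 22152 for MHC class II and 1417 against 7498 for follicular genes. The part of the marker mix in the counts below was not tested. Of 1533 measured genes 217 were at least 2-fold higher in CLP (14.2%) and 255 at least 2-fold lower (16.6%), or 172 and 296 with median-ratio scaling. All 33 measured biosynthesis genes were higher in CLP, 19 at least 2-fold (median 1.17), against 24 of 34 higher and 2 at least 2-fold (median 0.22) when the remaining B cells of CLP were set against those of Sham (3.89% of 6790 genes at least 2-fold higher, 8.45% lower). All 10 MHC class II genes were at least 2-fold lower in CLP (median −2.17), against 14 of 15 lower and 5 at least 2-fold lower (median −0.81) in the remaining B cells. Of 15 follicular genes 14 were lower and 13 at least 2-fold lower (median −3.16), against 23 of 26 and 11 (median −0.73) in the remaining B cells. The CLP difference was thus larger in the marker-positive cells for all 3 lists, although the 2 comparisons were not tested against each other. Further list medians in marker-positive cells were −2.43 for marginal zone and B-1 genes and −1.77 for immunoglobulin constant region genes. They were −1.63 for antigen receptor and identity, −1.18 for immediate early and −1.14 for plasma cell and secretory genes. Above 0 were type I interferon (0.81), glycolysis and hypoxia (0.75) and NF-κB and receptor-induced genes (0.63).

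Single genes followed. Odc1 stood at 380 CPM in CLP against 52.1 in Sham (2.87, 1.89 to 3.97), Mif at 2401 against 602, Rbm3, a cold-inducible RNA-binding protein, at 2988 against 739 (2.02), and Npm1 at 4215 against 1369 (1.62). Cd86 stood at 207 against 18.9 CPM (24 and 4 UMIs, 3.45, 1.91 to 5.44), in 7 of 15 CLP cells against 3 of 24 Sham cells. The list of activation surface genes that holds Cd86 had a median of −0.30. Isg15, an interferon-induced ubiquitin-like protein, had 23 UMIs against 1 (5.39), but 14 of the 23 came from 1 CLP cell. Lower in CLP were Ltb, lymphotoxin beta, at 8.64 against 644 CPM (1 and 136 UMIs, −6.22), Klf2 at 60.5 against 1317 (−4.45), Ets1 at 17.3 against 559 (−5.02), Mzb1 at 17.3 against 554 and Vim at 8.64 against 815 (−6.56), of which 1 Sham cell held 91 of 172 UMIs. In the remaining B cells, 13 of 18 interferon-γ response genes were at least 2-fold higher (median 1.50), and Socs3 stood at 389 against 8.98 CPM (5.44).

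The HDCA+CLP library gave too few cells for a comparison of genes, since its 4 marker-positive cells fell under the minimum of 20 for all marker-positive cells of a library. They comprised the 2 Jchain-high cells, the monocyte-transcript cell and 1 other cell. That cell held 3204 UMIs, 3 of them of Irf4 and 5 of the gating B cell genes, 0 monocyte UMIs, and no Fabp5 or Bcl2a1d. Its biosynthesis list stood at 5930 CPM against a median of 4203 in the remaining HDCA+CLP B cells, and its MHC class II list at 32459 against 16790. In the first list it thus lay between the lowest of the 15 CLP cells, at 2723, and the next, at 8512. It was also under the 90th percentile of the remaining HDCA+CLP B cells (7372). In the second list it lay above all 15 CLP cells. Whether HDCA lowered the share of such cells relative to CLP alone was not testable with 1 library each.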

How the data were processed

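Blood cells of 3 mouse groups were measured in 1 library each (12 h) with the 10x Chromium 3′ v3 kit, per the labels' protocols. The deposited matrices hold raw UMI counts of 31053 genes per cell barcode. The submitters' processing notes name Cell Ranger 5.0.1, Seurat 4.0.6, R 4.0.3 and the build mm39, and no coordinate of the counts was used. Samples were grouped by their labels. The members, the 27 gene lists and the comparisons were chosen with earlier results of these data known.

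For each pool of cells, UMIs were added up and scaled to 1000000 (CPM). Intervals are exact at 95%: Poisson for CPM, Clopper-Pearson for shares and conditional binomial for ratios. Genes needed an expected count of at least 10 in the smaller pool, pools needed 20 cells (10 in alternatives, and for the 15 cells of the CLP subset), a fold of 2 counted as called, genes of the rule were left out, and 0 counts were set at 3. Only 1 library stands for each group, so no test between groups was made.

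Named genes were the 10 highest and 10 lowest per library (5 and 5 between libraries) by the interval bound nearest 0, with at least 50 CPM in the higher pool. Mitochondrial, ribosomal, haemoglobin, immunoglobulin, T cell receptor, predicted and Y-linked genes and those under 20% of another class's level were left out. Up to 3 genes per direction were taken as examples of each list, and other genes were chosen after their values were seen. Doublets were scored against 2 simulated doublets per cell at 0.8% per 1000 barcodes and kept in the main results. Each ratio script was tested on simulated counts. Promoter windows came from RefSeq (GRCm38.p6) and transcript ends from GENCODE vM21. Python 3.11.15, NumPy 2.4.6, SciPy 1.17.1, pandas 2.3.3, scikit-learn 1.9.0, Biopython 1.88 and matplotlib 3.10.9 were used.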

Additional observations from a re-analysis of the deposited data

Results flagged for a closer look

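Of the gene lists with at least 5 measured genes in both libraries, 3 had medians of opposite sign, each past 0.5 (log2), in CLP and Sham under the same comparison of marker-positive with remaining B cells. In each case the difference between the libraries was not tested. Without Jchain-high and monocyte-transcript cells, marginal zone and B-1 cell genes had a median log2 ratio of −1.01 in CLP and 1.16 in Sham. With all marker-positive cells, interferon-γ response genes had −0.92 in CLP and 0.79 in Sham. Without the Jchain-high and monocyte-transcript cells their medians were −0.45 in CLP and 1.20 in Sham, over 5 genes in each library. With all marker-positive cells, cytokines and chemokines had 1.58 in CLP and −0.58 in Sham, but the CLP median was −0.63 with members re-chosen by thinning to 2000 UMIs. Without the Jchain-high and monocyte-transcript cells it was −2.04 in CLP, over 4 genes, and −0.65 in Sham, so that the signs were no longer opposite. Smaller medians of opposite sign were found with all marker-positive cells for immediate early genes (−0.67 in CLP and 0.13 in Sham) and MHC class I genes (−0.52 and 0.13), and without the Jchain-high and monocyte-transcript cells for MHC class I genes (−0.44 and 0.085) and cytoskeleton genes (−0.47 and 0.0061).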

How the results depend on the processing

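No paired analysis was possible because each group has 1 library, and no library could be left out. Over the alternatives, 195 of 274 values of shares and counts stayed within their limits (the counting interval of a share, 1.5 times a count) and 79 moved, 863 of 925 list medians stayed within 0.5 (log2), and 2488 of 2888 gene ratios stayed within their interval. The sign changed for 42 list medians, of which 2 were at least 1 (log2) from 0 in the main result, and for 26 gene ratios, of which 22 were. Cells without UMIs of other cell types could not be compared in HDCA+CLP and CLP, since 0 B cells were left there. The limit of 5000 UMIs was chosen after seeing the data. The thinned alternative re-chose the members by their thinned marker UMIs and used their full counts for genes. Its gene values are therefore not values at equal depth.

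The marker-positive share was 14.2% in CLP at a mitochondrial limit of 5% and 4.96% in CLP with at least 5 B cell UMIs. In Sham it was 3.24% with at least 2 marker UMIs, 0.437% with at least 5, 0.484% with cells thinned to 2000 UMIs, 0.401% without Irf4 in the rule and 0.765% without Bcl2a1d. Among cells with at least 5000 UMIs it was 21.4% in HDCA+CLP, 35.5% in CLP and 3.71% in Sham. For the other marker-positive cells, the HDCA+CLP share was 0.0% at the 5% mitochondrial limit, with at least 5 marker UMIs, without Irf4 and with at least 5000 UMIs. The CLP share was 19.4% with at least 5000 UMIs. The Sham share was 2.88% with at least 2 marker UMIs, 0.328% with at least 5, 0.447% thinned, 0.182% without Irf4 and 2.78% with at least 5000 UMIs.

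Counts of genes at least 2-fold apart followed the filter on counts. With an expected count of at least 30, higher and lower genes were 484 and 237 in CLP and 102 and 34 in Sham for all marker-positive cells, 95 and 38 in CLP and 44 and 12 in Sham for the other marker-positive cells, and 224 and 216 (all) and 61 and 54 (other) for CLP against Sham. With at least 3, they were 1858 and 1395, 862 and 447, 880 and 748, 646 and 394, 1177 and 1731, and 676 and 1008 in the same order. Thinned, the counts were 237 and 133 in CLP and 63 and 27 in Sham (all), 60 and 20 in Sham (other), and 174 and 132 (all) and 122 and 102 (other) for CLP against Sham.

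Among all marker-positive cells, higher genes in CLP were 606 without Fabp5, 562 with at least 5 B cell UMIs and 611 with at least 5000 UMIs, and lower genes 427 without Fabp5 and 326 with at least 5 B cell UMIs. In Sham, higher genes were 211 without Fabp5 and 142 without cells holding other markers, and lower genes 58 without those cells and 69 with at least 2 marker UMIs. For CLP against Sham, lower genes were 460 without doublets, 495 at the 5% mitochondrial limit, 336 with at least 5 marker UMIs, 354 without Irf4, 500 without Fabp5 and 415 with at least 5 B cell UMIs, and higher genes 273, 220 and 351 with at least 5 marker UMIs, without Irf4 and with at least 5 B cell UMIs. Among the other marker-positive cells, CLP had 124 lower genes with at least 5 marker UMIs, and 205 higher and 89 lower without Bcl2a1d. Sham had 107 higher genes at the 5% mitochondrial limit and 120 with at least 5000 UMIs. For CLP against Sham without Bcl2a1d there were 137 and 126.

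The values that changed sign from at least 1 (log2) follow. For all CLP marker-positive cells, U90926 was −4.48 with at least 5 marker UMIs, −2.76 thinned and −4.42 without Bcl2a1d, and thinned values were −3.09 for Ctsg, −3.99 for Cxcl10, −0.30 for Il1rn, −4.08 for Jchain, −0.70 for Mpo, −0.13 for Rep15 and −0.63 for the median of cytokines and chemokines. Without Fabp5, Ctsg was −4.31, Mpo −1.93 and Rep15 −1.36. For all Sham cells, Jchain was −0.37 with at least 5 marker UMIs and −0.26 without Irf4, and Id3 was 0.11 thinned. For CLP against Sham, Ccl4 and Cxcl10 were −0.84 thinned. Among the other marker-positive cells, Vim in Sham was −0.19 at the 5% mitochondrial limit and −0.78 thinned, Zcwpw1 −0.082 at that limit, S100a6 −1.69 thinned in Sham and 0.20 for CLP against Sham, and the cell cycle median in CLP was −0.22 with at least 5000 UMIs. Alternatives that drop cells leave fewer cells per pool, and the cause of each change was not tested.

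With 15 and 24 cells in the subsets, genes under an expected count of 10 were not measured, and the 4 HDCA+CLP cells allow no statement on genes.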
